A study of Mus musculus with 6 samples.

Results

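The ZFP genes studied here are zinc-finger genes whose mouse symbol is Zfp followed by a number. Zinc fingers are small protein folds held by a zinc ion, and most ZFP proteins carry a row of them with which they bind DNA. Members were the ZFP genes that the platform annotation names, without the mRNA-binding Zfp36, Zfp36l1 and Zfp36l2, for which any probe had a detection p-value under 0.01 on at least 1 of the 6 arrays. Of 278 ZFP genes named on the array, 125 met this rule, among 7149 detected genes of 16593 named genes in all. The last genes inside it were Zfp691, Zfp704, Zfp809 and Zfp810, with a lowest detection p of 0.00877, and the first outside it were Zfp553, Zfp598 and Zfp709 at 0.0113 and Zfp296 at 0.0125. All 125 platform symbols are also the current RefSeq symbols.

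The cells were bone marrow-derived macrophages of female 129/BL6 mice, grown out of marrow in medium conditioned by L929 cells. There were 6 groups with 1 array each: Irak2 knockout macrophages with R848, with CpG B or untreated, and wild-type macrophages with R848, with CpG B or untreated. R848 and CpG B were each used at 1 µg/ml for 2 h. R848 is a small-molecule agonist of Toll-like receptor 7 in mouse cells, and CpG B is an oligonucleotide agonist of Toll-like receptor 9; both receptors signal through MyD88 and IRAK kinases, of which Irak2 is one. Nothing in the labels says how old the mice were, how the Irak2 allele was disrupted or whether marrow was pooled.

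Many ZFP proteins join their fingers to a KRAB domain, which recruits the corepressor Trim28, the histone methyltransferase Setdb1 and HP1 proteins and so represses genes and retroelements. These genes lie in clusters of close paralogs that have multiplied in rodents, and a probe to one may also bind RNA of a neighbour. Others have SCAN or no further domain and act as activators, as partners of chromatin complexes or in RNA and ubiquitin pathways. In macrophages, the best known zinc-finger proteins of the Toll-like receptor response are the RNA-binding ones left out by the rule, such as Zfp36 and Zc3h12a.

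With 1 array per group, each effect was estimated with limma from all 6 arrays in a model of genotype plus agent. An effect is a difference of log2 normalised intensities. A gene was called at a Benjamini-Hochberg adjusted p under 0.05 over all 7149 genes. Arrays had between 8968 and 9718 detected probes (34.9% to 37.8%), and their number limits the precision. Probes to Irak2 were detected on all 6 arrays, at 725 and 941 after R848 in the knockout against 2662 and 3680 after R848 in wild type for the 2 probes. Where these probes lie relative to the disrupted part of the gene is not known here, so they do not check the labels. All 6 macrophage markers on the platform were detected on at least 1 array, and 5 of them on all 6 arrays. The exception, Mertk, was detected on no stimulated array. Of 3 B-cell markers on the platform, 1 (Cd79b) was detected, on all 6 arrays. No T-cell or fibroblast marker was detected.

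In the R848 effect, 27 of the 125 ZFP genes were called: 9 rose and 18 fell. Of these, 8 were below detection on both R848 arrays or on both untreated arrays. They passed the filter through the side where they are high, and only a bound can be given. The adjusted p of such a gene tests the fitted values, below-detection ones included, and not the bound. In a separate fit of the 5958 genes detected on all 6 arrays, 9 ZFP genes rose and 10 fell. Of all genes in that fit, 784 rose and 1152 fell. It kept 7 of the 9 risen and 8 of the 18 fallen ZFP calls. The 27 calls are 21.6% of the ZFP genes, against 29.4% of all genes tested. The ZFP genes that rose were 7.2% of the set, against 12.1% of all genes, and those that fell were 14.4%, against 17.3%. The median effect over the 125 was -0.07, beside -0.08 over all genes. Zfp281, Zfp263 and Zfp275 led the rise, and Zfp763, Zfp362, Zfp608 and Zfp367 led the fall; Zfp763 is known only as a bound. CpG B called 5 ZFP genes and the genotype called another 5. With either untreated array left out, no ZFP gene was called in the R848 effect in the limma fit with 1 residual degree of freedom, although 31 (knockout untreated array left out) and 22 (wild-type untreated array left out) had an unadjusted p under 0.05. Of all 7149 genes, 27 and 2 were then called, against 2103 with all arrays. Without the wild-type R848 array, 6 rose and 12 fell, with 1182 of all genes called. With median scaling in place of quantile normalization, 5 rose and 19 fell, with 1924 of all genes called.

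**Figure D1:**
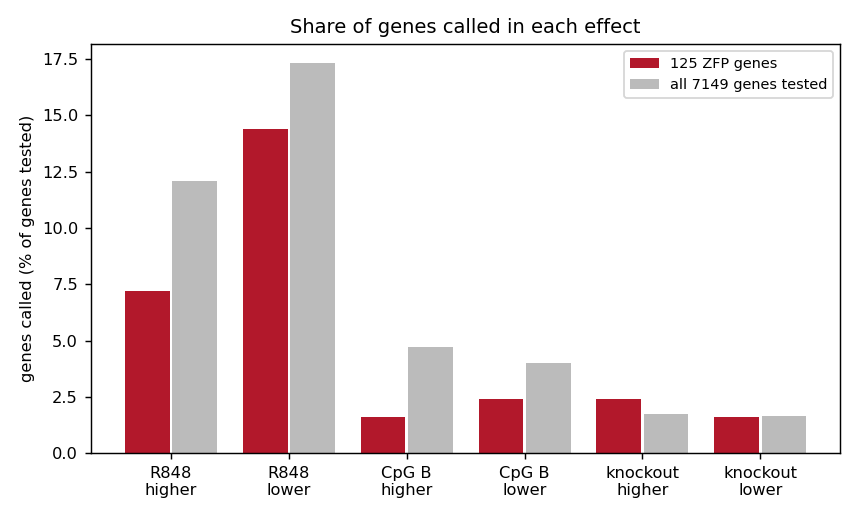
Bars give the percent of genes called higher or lower in the limma fit, for the 125 ZFP genes (red) beside all 7149 genes tested (grey), in the R848, CpG B and knockout effects. The ZFP share called with R848 stood below that of all genes in both directions, at 7.2% against 12.1% higher and 14.4% against 17.3% lower.

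Zfp281, a protein that binds GC-rich boxes and is known as a regulator of pluripotency in embryonic stem cells, rose the most with R848. Its normalised intensity was 868 in knockout and 1488 in wild-type macrophages with R848, against 436 and 422 in untreated knockout and wild-type macrophages. Both R848 arrays lay above both untreated arrays, and the wild-type R848 array was the highest of the 6. The effect was 1.41 ± 0.25 (log2, SE; adjusted p = 0.0133 by limma). After CpG B, the intensity was 828 in knockout and 721 in wild-type macrophages, an effect of 0.85 that did not pass the test (adjusted p = 0.098).

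Zfp263, a zinc-finger protein with a SCAN and a KRAB domain, rose with both agents. It was 5239 in knockout and 8405 in wild-type macrophages with R848, and 5085 and 6785 with CpG B. In the untreated arrays it was 2683 in knockout and 3504 in wild-type macrophages. All 4 stimulated arrays lay above both untreated arrays. It rose by 1.11 ± 0.13 with R848 (adjusted p = 0.00494) and by 0.94 ± 0.13 with CpG B (adjusted p = 0.0175, both by limma).

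Zfp275, a gene of the X chromosome, was 234 in knockout and 213 in wild-type macrophages with R848, and 214 and 206 with CpG B. Untreated, it was 85.2 in knockout macrophages, where it was not detected, and 126 in wild-type macrophages. The 4 stimulated arrays lay close together and above both untreated ones. The R848 effect was 1.11 ± 0.20 (adjusted p = 0.0137) and the CpG B effect 1.02 ± 0.20 (adjusted p = 0.038, limma).

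Zfp658 was 158 in knockout and 106 in wild-type macrophages with R848, and was below detection in both untreated groups at 59.7 and 67.4. The untreated level is thus only bounded, and the gene was at least 1.29-fold higher with R848. It passed the filter through stimulated arrays alone. On the wild-type R848 array it was not detected either. Zfp655, whose product is known to bind the Vav guanine exchange factor of lymphocytes, was 799 in knockout and 1065 in wild-type macrophages with R848, against 504 and 566 untreated. Its effect was 0.79 ± 0.13 (adjusted p = 0.0114, limma).

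The other genes that rose did so by less than 2-fold. Zfp513, whose human counterpart is linked to an inherited retinal degeneration, had an effect of 0.73, and Zfp119a one of 0.71. Zfp207, a protein of the mitotic spindle that loads Bub3 onto kinetochores, had 0.46. Zfp35 was the weakest call, with 0.45 and an adjusted p of 0.0456 by limma. A second untreated array of each genotype was recovered from the authors' processed averages. With it added, Zfp35 was the only called R848 gene whose R848 arrays overlapped the untreated arrays, and the other 26 stayed apart. These genes were called from the deposited arrays, and the recovered array may be a technical repeat, so this is no independent check. The share of all genes that stayed apart was not counted.

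Zfp763 was lost from detection with R848. It was 63.5 in knockout and 44.8 in wild-type macrophages with R848, below detection in both, against 160 and 158 in untreated knockout and wild-type macrophages, where it was detected. The CpG B arrays lay between, at 107 in knockout and 91.7 in wild-type macrophages. As a bound, it was at least 1.47-fold lower with R848 (adjusted p = 0.0031 by limma), and its CpG B effect of -0.68 did not pass (adjusted p = 0.0541).

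Zfp362 was detected on all 6 arrays, so its fall was measured on both sides. It was 602 in knockout and 469 in wild-type macrophages with R848, against 1820 and 1365 untreated. The R848 effect was -1.57 ± 0.23 (adjusted p = 0.00833, limma). With CpG B it was 747 in knockout and 1013 in wild-type macrophages, both below the untreated arrays, with an effect of -0.86 that was not called (adjusted p = 0.0826).

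Zfp608, known in the mouse as a repressor of the Rag genes in thymocytes, was 216 in knockout and 106 in wild-type macrophages with R848, against 511 and 370 untreated. The wild-type R848 array was below detection. Its effect was -1.52 ± 0.31 (adjusted p = 0.0196, limma). The CpG B values were 168 in knockout and 213 in wild-type macrophages, an effect of -1.20 that missed the threshold (adjusted p = 0.0748).

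Zfp367, whose human counterpart was described as an activator of globin genes in erythroid cells, fell with both agents. It was 355 in knockout and 287 in wild-type macrophages with R848, and 315 and 358 with CpG B. The untreated values were 737 in knockout and 671 in wild-type macrophages. No stimulated array came near an untreated one. The effects were -1.14 ± 0.16 with R848 (adjusted p = 0.00686) and -1.07 ± 0.16 with CpG B (adjusted p = 0.0185, limma). Its other probe was also detected on all 6 arrays and gave -1.32 and -1.11.

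Among the remaining falls, Zfp704 (-1.10), Zfp41 (-1.07) and Zfp61 (-1.02) passed 2-fold in the fit. Zfp61 was detected on both untreated arrays and on no stimulated array, so it passed the filter only through the side where it is high. As a bound, it was at least 1.01-fold lower with R848. Zfp704 was detected on the untreated wild-type array alone and allows no bound above 1. The smaller falls were Zfp472 (-0.84), Zfp30 (-0.83), Zfp512 (-0.83), Zfp280c (-0.72), Zfp692 (-0.71), Zfp94 (-0.69), Zfp12 (-0.67), Zfp282 (-0.64), Zfp688 (-0.57), Zfp467 (-0.51) and Zfp219 (-0.44). Of these, Zfp692 is known as a repressor of gluconeogenic genes, the human counterpart of Zfp282 as a repressor of a retroviral promoter, Zfp467 as a factor that favours fat over bone in marrow stroma, and Zfp219 as a partner of Sox9 in cartilage. Zfp30, Zfp692, Zfp94 and Zfp688 were below detection on both R848 arrays; the bound was at least 1.34-fold lower for Zfp30 and 1.38-fold lower for Zfp692 (adjusted p = 0.0121 and 0.0179 by limma), with none above 1 for the other pair.

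**Figure D2:**
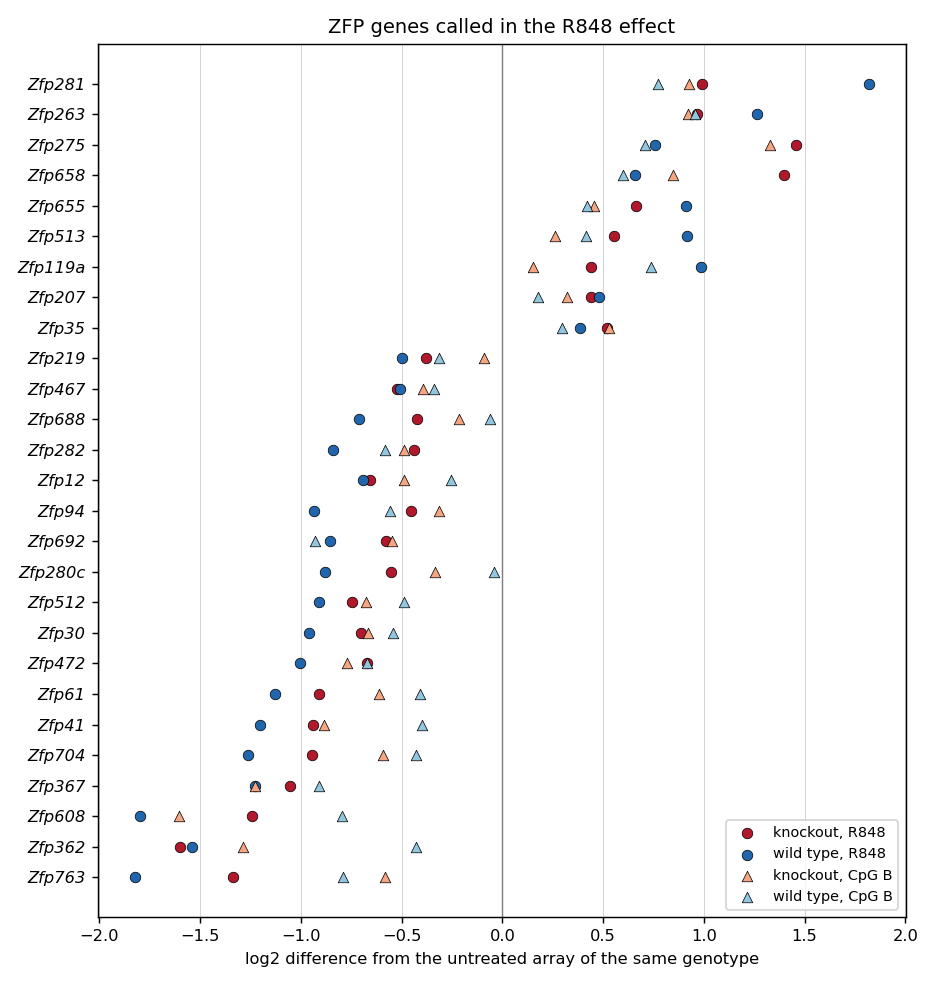
Each point is the log2 difference of 1 stimulated array from the untreated array of the same genotype, for the 27 ZFP genes called in the R848 effect (red and blue circles, R848 in knockout and wild type; orange and pale blue triangles, CpG B in knockout and wild type). All 27 genes lie on 1 side of 0 on all 4 stimulated arrays, and in 26 of 27 the mean CpG B effect was smaller than the R848 effect. The genes were picked by their R848 effect and both agents share the untreated arrays, so these counts do not compare the agents. The direct difference of R848 and CpG B called no ZFP gene.

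In all 27 genes the R848 arrays of both genotypes lay on the same side of both untreated arrays. The genes were called from these same arrays, so this is no separate check. The share of all genes that lay apart in this way was not counted. Markers of dividing cells moved too. Their summed intensity was 3823 in knockout and 4487 in wild-type macrophages with R848, against 5436 and 7918 untreated. Of the 4 tested, Mcm2 and Rrm2 fell with R848, and Top2a and Plk1 were not called. Plk1, which differed between the genotypes, holds much of the wild-type sums. Fewer dividing cells and less RNA per cell cannot be told apart in bulk RNA, and their part in the fall of the ZFP genes was not tested.

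CpG B called 2 risen and 3 fallen ZFP genes. They are 4% of the members, against 8.69% of all genes (4.7% risen and 3.99% fallen), and the median effect was -0.09, beside -0.04 over all genes. They were Zfp263 and Zfp275, which rose, and Zfp367, Zfp692 and Zfp472, which fell. Zfp692 had an effect of -0.74 ± 0.14 (adjusted p = 0.0373) and Zfp472 one of -0.72 ± 0.15 (adjusted p = 0.0452, limma). All 5 were also called with R848, but the 2 comparisons share the untreated arrays. With either untreated array or the knockout CpG B array left out, no ZFP gene was called with CpG B by limma; 15 (knockout untreated), 10 (wild-type untreated) and 14 (knockout CpG B) then had an unadjusted p under 0.05. Of all genes, 1, 4 and 97 were then called in the same order, against 621 with all arrays. With either R848 array left out, 5 rose and 13 fell, with 1290 of all genes called. The direct difference of R848 and CpG B called no ZFP gene by limma, and none of all genes; 11 ZFP genes had an unadjusted p under 0.05.

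The promoters of genes that moved were read for 4 motifs of factors that act in the Toll-like receptor response. RefSeq promoters, 250 bases before to 50 after a start, were at hand for 104 of the 125 ZFP genes. The motifs were the NF-kB consensus, the interferon response letters GAAANNGAA, the AP-1 letters TGANTCA and the CREB letters TGACGTCA, on both strands; the CREB letters do not contain the AP-1 letters. Of the 9 promoters of 8 genes that rose with R848, 1 held the interferon response letters and none held any other. Of the 16 promoters of 14 genes that fell, 3 held the NF-kB consensus (Zfp467, Zfp512 and Zfp763) and 1 the CREB letters (Zfp367). Over all 129 ZFP promoters the shares were 10.9% for NF-kB, 4.65% for the interferon response letters, 3.88% for AP-1 and 4.65% for CREB. Over 32851 promoters of all genes they were 8.46%, 8.56%, 7.81% and 1.79% in the same order. A match is a description of letters, and its absence says only that they are not in this window.

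The sequences below, from RefSeq on GRCm38.p6 and written 5′ to 3′ on the gene's strand, show genes that rose with both agents (Zfp263 at chr16:3743849-3744148, plus strand, and Zfp275 at chrX:73342370-73342669, plus strand) and genes with a motif match, which is in capitals: the interferon response letters in Zfp655 (chr5:145231492-145231791, plus strand), the CREB letters in 1 of the 2 promoters of Zfp367 (chr13:64152324-64152623, minus strand), and the NF-kB consensus in Zfp763 (chr17:33033332-33033631, minus strand).
Zfp263: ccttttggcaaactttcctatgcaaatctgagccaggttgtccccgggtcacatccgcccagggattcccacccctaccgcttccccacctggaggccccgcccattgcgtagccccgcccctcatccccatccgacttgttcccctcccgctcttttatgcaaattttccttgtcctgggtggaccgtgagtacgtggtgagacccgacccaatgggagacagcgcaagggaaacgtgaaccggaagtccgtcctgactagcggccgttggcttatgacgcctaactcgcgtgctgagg
Zfp275: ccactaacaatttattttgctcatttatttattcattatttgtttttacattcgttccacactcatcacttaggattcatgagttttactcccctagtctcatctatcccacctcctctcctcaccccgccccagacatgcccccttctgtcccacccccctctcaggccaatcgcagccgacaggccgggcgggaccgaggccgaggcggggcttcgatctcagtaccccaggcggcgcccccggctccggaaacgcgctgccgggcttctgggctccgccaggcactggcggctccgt
Zfp655: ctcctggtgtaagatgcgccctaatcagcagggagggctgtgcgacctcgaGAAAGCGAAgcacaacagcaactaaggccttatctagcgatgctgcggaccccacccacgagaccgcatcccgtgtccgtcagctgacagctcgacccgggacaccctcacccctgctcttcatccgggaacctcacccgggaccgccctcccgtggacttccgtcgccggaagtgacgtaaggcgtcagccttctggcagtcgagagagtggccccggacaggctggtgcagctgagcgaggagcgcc
Zfp367: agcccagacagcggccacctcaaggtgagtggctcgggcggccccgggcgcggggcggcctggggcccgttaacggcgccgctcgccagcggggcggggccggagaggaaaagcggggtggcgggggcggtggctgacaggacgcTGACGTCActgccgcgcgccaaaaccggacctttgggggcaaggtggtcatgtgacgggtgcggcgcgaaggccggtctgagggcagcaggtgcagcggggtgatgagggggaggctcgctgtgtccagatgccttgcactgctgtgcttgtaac
Zfp763: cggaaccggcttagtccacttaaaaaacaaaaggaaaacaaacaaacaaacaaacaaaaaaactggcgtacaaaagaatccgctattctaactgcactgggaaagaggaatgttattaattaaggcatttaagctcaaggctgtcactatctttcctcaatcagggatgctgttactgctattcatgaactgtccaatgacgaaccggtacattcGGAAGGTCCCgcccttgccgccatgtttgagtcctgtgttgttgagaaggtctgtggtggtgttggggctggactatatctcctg
The promoters shown were picked by hand. The genes with the NF-kB match fell by different amounts, Zfp467 by 0.51 and Zfp512 by 0.83 on the log2 scale and Zfp763 at least 1.47-fold (adjusted p = 0.0031 by limma).

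Between the genotypes, 3 ZFP genes were higher and 2 lower in the knockout. These 5 are 4% of the members, against 3.4% of all genes (1.76% higher and 1.64% lower), so their share was near the background. The median effect was 0.06, beside 0.00 over all genes. With median scaling, which moved the all-gene median to -0.12, none was called higher and 2 lower; by unadjusted p under 0.05, 9 were higher in limma. Zfp985 on chromosome 4 and Zfp943 and Zfp160 on chromosome 17 were higher; Zfp39 on chromosome 11 and Zfp30 on chromosome 7 were lower.

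Zfp943 was 525, 577 and 550 in knockout macrophages with R848, with CpG B and untreated, against 292, 395 and 330 in wild-type macrophages. All 3 knockout arrays lay above all 3 wild-type arrays. The effect was 0.71 ± 0.11 (adjusted p = 0.0316, limma). Zfp160 was 272, 273 and 255 in knockout macrophages in that order, against 160, 186 and 161 in wild-type macrophages, with an effect of 0.66 ± 0.10 (adjusted p = 0.0324). Zfp985 was 174, 172 and 186 in knockout macrophages, against 85.8, 120 and 108 in wild-type macrophages, where the R848 array was below detection. Its effect was 0.77 ± 0.13 (adjusted p = 0.0414, limma), and again no array overlapped.

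Zfp39 was detected on all 3 wild-type arrays and on no knockout array, the one ZFP gene with that pattern. It was 49.6, 64.3 and 82.4 in knockout macrophages with R848, with CpG B and untreated, against 121, 101 and 167 in wild-type macrophages. As a bound it was at least 1.27-fold lower in the knockout. It passed the filter through the wild-type arrays alone, and among genes detected on all 6 arrays no ZFP gene was called lower, with 7 at an unadjusted p under 0.05. Zfp30, which in mice has been linked to the chemokine Cxcl1 and to neutrophil recruitment in the lung, was 65.1, 66.7 and 106 in knockout macrophages, against 103, 137 and 199 in wild-type macrophages. Here the untreated knockout array overlapped the wild-type R848 array, although within each condition the knockout was lower; the effect was -0.87 ± 0.12 (adjusted p = 0.0225, limma).

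**Figure D3:**
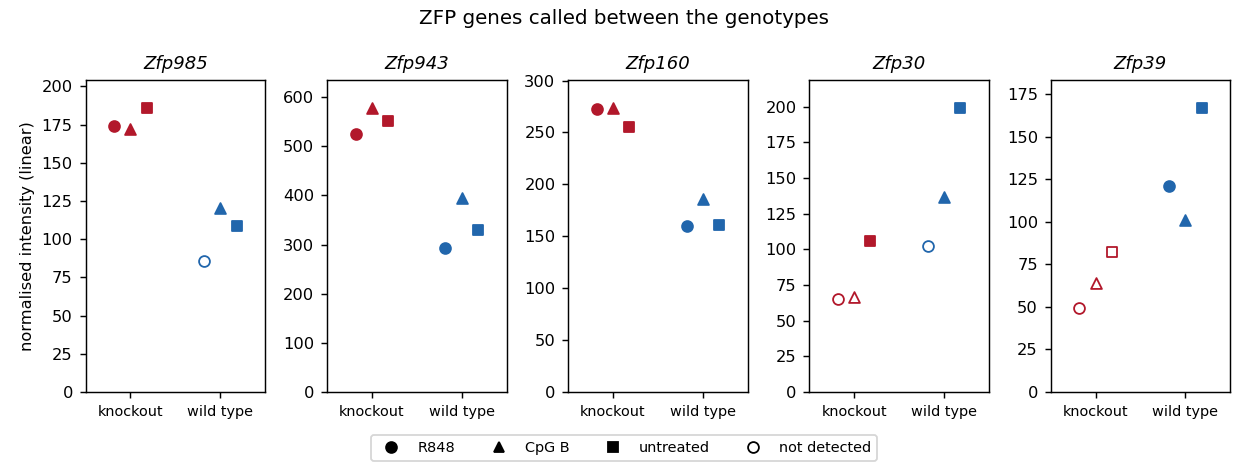
Normalised intensity on a linear axis from 0, for the 5 ZFP genes called between the genotypes; circles are R848, triangles CpG B and squares untreated, open symbols are below detection, and each panel has knockout left of wild type. The knockout arrays lie apart from the wild-type arrays in Zfp985, Zfp943, Zfp160 and Zfp39, and overlap them in Zfp30. The genes were called from these same arrays, so this is no separate check. The share of all genes that lay apart in this way was not counted.

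The genotype calls depended on single arrays, in fits with 1 residual degree of freedom. With any 1 of the 6 arrays left out, none of the 3 higher genes was called by limma, at 10 to 22 ZFP genes with an unadjusted p under 0.05 and a higher level in the knockout. With either untreated array left out, neither lower gene was called, and 5 ZFP genes then had an unadjusted p under 0.05 and a lower level in the knockout. Of all genes, 9 were called without either untreated array, 279 without either R848 array and 90 without either CpG B array, against 243 with all arrays. Among untreated arrays alone, with the recovered second array of each genotype, all 5 stayed apart. For Zfp943, in the authors' normalised intensity, the untreated pairs were 541 and 489 in knockout against 320 and 353 in wild-type macrophages. For Zfp39 they were 68.0 and 44.8 against 155 and 124. The 5 genes were called with the deposited untreated arrays, and the recovered array may be a technical repeat, so this does not check the calls. Some ZFP genes not called between the genotypes, such as Zfp513 and Zfp467, also stayed apart. The share of all genes that did so was not counted.

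Marker levels of other cell types also differed between the genotypes. The summed intensity of the dendritic-cell list was 14693 to 19891 in knockout against 4527 to 7527 in wild-type macrophages, with 4 of 8 genes detected and all 4 higher in the knockout; Itgax, Flt3, Zbtb46 and Ccr7 were not detected. The neutrophil list summed to 9969 to 13128 in knockout against 15892 to 18796 in wild-type macrophages, and 4 of its 7 tested genes were lower (S100a9, Camp, Ngp and Ltf). S100a8 and S100a9 hold most of that sum. Mpo, on the same list, was 1373, 1457 and 1506 in knockout macrophages with R848, with CpG B and untreated, against 843, 1123 and 932 in wild-type macrophages, and was not called (0.59, adjusted p = 0.0605 by limma); the effect of Elane was 0.01. Of the dividing-cell list, Plk1 was lower in the knockout, at 172, 163 and 176 against 1558, 2006 and 2932 in wild-type macrophages (-3.62, adjusted p = 0.000991 by limma), while Top2a, Mcm2 and Rrm2 were not called. The part of these differences in the ZFP genotype calls was not tested.

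Irak2 lies on chromosome 6. None of the 5 ZFP genes on chromosome 6 was called between the genotypes (effects from -0.33 to 0.06), beside 4.53% of all genes tested there. None of the 7 on chromosome 9 was called either (-0.22 to 0.28), beside 7.64% of all genes tested there. At these shares so few genes would seldom hold a call, so its absence says little. On chromosome 17, 12 of the 16 ZFP genes had an effect above 0, with a median of 0.23, against 77 of all 125 ZFP genes with a median of 0.06. The 2 calls there stand beside 2.06% of all genes tested on chromosome 17. Besides Zfp943 and Zfp160 these include Zfp101 (0.61, adjusted p = 0.0548) and Zfp213 (0.58, adjusted p = 0.0603), which missed the threshold in limma. Zfp160 and Zfp52 are neighbours among the members there, with 9 other protein-coding genes between them, and 6 protein-coding genes and the members Zfp948 and Zfp760 lie between Zfp52 and Zfp943. Since these paralogs are similar and probe sequences were not used here, signal from one in the probe of another cannot be told apart from its own.

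Zfp52 differed between single arrays in the knockout. It was 357 in knockout and 83.7 in wild-type macrophages with R848, 178 and 113 with CpG B, and 119 and 85.1 untreated. The knockout R848 array was the highest of the 6, and Zfp52 was below detection in wild-type macrophages with R848 and untreated. The knockout was at least 3.18-fold higher with R848. With 1 array per group this difference has no replicate check, and neither the genotype effect of 1.08 (adjusted p = 0.162) nor the R848 effect of 0.78 (adjusted p = 0.185) was called by limma.

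Single arrays were compared by size alone, at 2-fold, over members detected on at least 1 of the 2 arrays. R848 in the knockout put 3 ZFP genes higher and 4 lower of 113 (6.19%, against 10.4% of all genes, 5.77% higher and 4.68% lower): Zfp52, Zfp275 and Zfp658 were higher, and Zfp362, Zfp763, Zfp608 and Zfp367 lower. Zfp658 and Zfp763 are not shown to pass 2-fold, since their dim array was below detection and their bound was smaller, at least 1.56-fold and 1.54-fold. In wild type, R848 put 2 higher and 9 lower of 107 (10.3%, against 15.6% of all genes, 7.7% higher and 7.88% lower). Zfp281 and Zfp263 were higher, and Zfp763, Zfp608, Zfp362, Zfp704, Zfp367, Zfp41, Zfp251, Zfp61 and Zfp472 lower. For Zfp763, Zfp704 and Zfp61 the bound was under 2-fold, which leaves 6 lower genes measured or bounded past 2-fold. With no background correction 6 members were past 2-fold, and with median scaling 19. Median scaling also moved the median over these members from -0.18 to -0.39. Here and below, the share of all genes past 2-fold was counted with the main processing only. CpG B put 1 higher and 4 lower of 113 in the knockout (4.42%, against 8% of all genes, 4.64% higher and 3.37% lower) and none of 120 in wild type (5.24% of all genes, 3.64% higher and 1.6% lower). The members beyond 2-fold with CpG B in the knockout were Zfp275, higher, and Zfp608, Zfp362, Zfp367 and Zfp987, lower, with Zfp987 bounded at 1.25-fold only.

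Knockout against wild type after R848 had 6 ZFP genes higher and 1 lower of 107 (6.54%, against 4.68% of all genes, 2.2% higher and 2.48% lower). Zfp52, Zfp157, Zfp987, Zfp608, Zfp385a and Zfp985 were higher and Zfp39 was lower. Only Zfp52 and Zfp157 are measured or bounded past 2-fold; the wild-type array, or for Zfp39 the knockout array, was below detection in the other 5 and their bounds were smaller. With no background correction 2 members were past 2-fold. Zfp157 was 275 in knockout and 111 in wild-type macrophages with R848, the wild-type array below detection, and was at least 2.45-fold higher. Untreated, Zfp39 alone was past 2-fold in the values, of 115 (2.16% of all genes, 1.2% higher and 0.952% lower). After CpG B it was Zfp30 alone, of 119 (2.73% of all genes, 1.65% higher and 1.08% lower); both were lower in the knockout, below detection there, and bounded at 1.65-fold (Zfp39) and 1.46-fold (Zfp30), so neither is shown to pass 2-fold. With no background correction neither comparison had a member past 2-fold. The wild-type R848 array detected 85 of the 125 ZFP genes, fewer than the 105 to 117 of the other arrays, and its part in these differences was not tested.

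**Figure D4:**
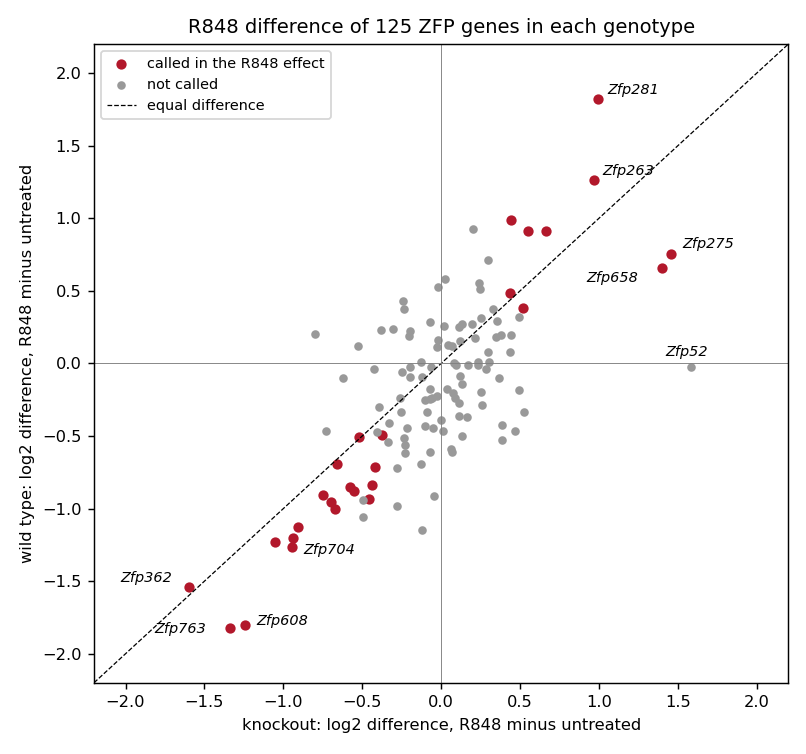
Each of the 125 ZFP genes by its log2 difference of R848 minus untreated in knockout (horizontal) and in wild-type macrophages (vertical), with the genes called in the R848 effect in red and a dashed line of equal difference. Of the 27 called genes, 22 had the larger difference in wild type, and Zfp52 lies apart at 1.58 in knockout and -0.02 in wild type. Of all genes, 15.6% were past 2-fold with R848 in wild type, against 10.4% in the knockout. The share of all called genes with the larger difference in wild type was not counted, and a part of the genotype in the 22 was not tested.

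The size of the response in each genotype was compared in a model with an interaction shared by both agents. No ZFP gene was called, nor any other gene, in the limma fit with 1 residual degree of freedom; 3 ZFP genes had an unadjusted p under 0.05, and the lowest adjusted p was 1.00. For scale, the 2 untreated arrays of 1 genotype, the deposited and the recovered one, differed over the ZFP genes by a median of 0.16 (knockout) and 0.17 (wild type) in absolute log2, with 95% of genes within 0.57 and 0.42. The largest such gap was 1.11, for Zfp11 in the knockout.

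Of 12 tested ZFP genes listed as partners of corepressors and chromatin, Zfp281 and Zfp263 rose and Zfp219 fell with R848, and of 8 listed for ubiquitin, RNA or ribosome roles Zfp207 rose. These are 25% and 12.5% called, against 29.4% of all genes. Several others with a known role passed no test. Zfp91, a ubiquitin ligase of the kinase NIK in the non-canonical NF-kB pathway, was 899 in knockout and 872 in wild-type macrophages with R848, against 800 and 878 untreated. Its R848 effect was 0.08 ± 0.12 (adjusted p = 0.653, limma). Zfp410, which drives the chromatin remodeller gene Chd4, had -0.23 ± 0.14 (adjusted p = 0.269), and Zfp318, known for its role in IgD expression in B cells, had -0.20 ± 0.16 (adjusted p = 0.4). Zfp451, a SUMO ligase, had -0.16 ± 0.12 (adjusted p = 0.365). Zfp809, which silences retroviruses in mouse embryonic cells, was detected on the wild-type CpG B array alone. An effect that misses the threshold does not show that a level was the same.

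For some genes the probes disagreed. Of the 125, 20 had at least 2 detected probes. The 3 probes of Zfp64, known as a cofactor of NF-kB p65, gave mean R848 differences of -0.15, -0.12 and 0.36, and those of Zfp317 -0.37, 0.04 and 0.04. Zfp326 and Zfp292 also had probes of both signs. The probes of Zfp367, Zfp41, Zfp763, Zfp692, Zfp654 and Zfp131 gave 1 sign each.

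Of the 125 ZFP genes, 81 were detected on all 6 arrays, 44 on 1 to 5, and 8 on a single array. Zfp61, Zfp704 and Zfp94 were detected on untreated arrays alone. Zfp335, Zfp454, Zfp593, Zfp595, Zfp658, Zfp661, Zfp691, Zfp809, Zfp810 and Zfp933 were detected on stimulated arrays alone. No ZFP gene was found on all 4 stimulated and neither untreated array.

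The partners through which KRAB zinc fingers act were tested beside them. Of 26 listed corepressor and heterochromatin genes, 18 were tested; none rose (against 12.1% of all genes) and 5 fell with R848 (27.8%, against 17.3% of all genes). Those that fell were Uhrf1 (-1.47) and Dnmt1 (-1.37), which keep up DNA methylation at replication, the HP1 gene Cbx5 (-0.65), Trim28 (-0.49), the KRAB corepressor itself, and the HP1 gene Cbx3. Cbx3 was detected on 1 untreated array and no R848 array, and allows no bound above 1 (adjusted p = 0.0136 by limma). With CpG B, Uhrf1 (-1.04) and Dnmt1 (-0.95) fell, and none was called between the genotypes. Uhrf1 and Dnmt1 are also genes of replicating cells. Of the 4 dividing-cell markers tested, Mcm2 and Rrm2 fell with each agent, and Top2a and Plk1 were called with neither. These falls are 50%, against 17.3% of all genes with R848 and 3.99% with CpG B. The part of dividing cells in the fall of Uhrf1 and Dnmt1 was not tested.

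Other zinc-finger families gave these counts with R848, against 29.4% of all genes called (12.1% risen and 17.3% fallen). Of 14 Zbtb genes, which pair zinc fingers with a BTB domain, Zbtb18 rose (0.60) and Zbtb14 (-0.92) and Zbtb45 (-0.79) fell, 21.4% in all. Of 8 Klf genes, 2 rose and 3 fell (62.5%), and of 8 Zkscan and Zscan genes none was called, with 2 at an unadjusted p under 0.05. Of 12 Zc3h genes, 3 rose (25%): Zc3h12a, the RNase also called regnase-1 (3.70), Zc3h7a (0.86) and Zc3h6. Zc3h6 was below detection on both untreated arrays and was at least 1.09-fold higher (adjusted p = 0.0236 by limma).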

How the data were processed

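RNA of 6 macrophage samples, 1 per group, was hybridised to Illumina mouseRef-8 v2 arrays with 25697 probes, of which 23978 have 1 gene symbol in the platform annotation and 1719 have none. The authors deposited probe intensity values not normalized between arrays, with a deposited detection p-value beside each, per the file headers; BeadStudio is named in the submitters' processing notes, with no version. They also deposited processed intensity values, in which the 2 untreated columns appear to be averages of 2 arrays: the column doubled, minus the deposited array, matched the common distribution within 0.5 units for 99.7% of values in each genotype, and the array so recovered may be a technical repeat.

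With R 4.3.3 and limma 3.58.1, background was corrected by normexp from the detection p-values (offset 16), arrays were quantile normalized and values taken as log2. The brightest probe stood for each gene, and 7149 genes detected (p under 0.01) on at least 1 array were tested with lmFit and eBayes, in a model of genotype plus agent with 2 residual degrees of freedom and Benjamini-Hochberg adjustment. P-values measure the spread between 6 single arrays around that model, with any interaction inside it. A group below detection on all its arrays is given as a bound: the brighter mean against, per array, the higher of the dim probe and the lowest detected signal. The fit was tested on simulated data.

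Members and gene lists were chosen with earlier results of these data known. Named genes are those called, those past 2-fold between single arrays, those with special detection or probe patterns, and listed genes. Classes by protein sequence were not made here. Alternatives covered background, scaling, offset, filters, probe rule, model terms and arrays left out.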

Additional observations from a re-analysis of the deposited data

Results flagged for a closer look

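Zfp52 had R848 differences of opposite sign in the genotypes: 1.58 in knockout and -0.02 in wild-type macrophages on the log2 scale, a difference of 1.61. The difference was not tested for R848 alone; in the model with an interaction shared by both agents its adjusted p was 1.00 by limma. The wild-type difference is close to 0 and both wild-type arrays are below detection, so its sign carries no information. The size asked for here was chosen after the values were seen. At any size, 38 of the 125 ZFP genes differed in sign with R848 and 41 with CpG B, and none of the genes called in either effect did. With at least 0.5 asked of each genotype no ZFP gene differed in sign, and with a difference of at least 1 between the genotypes Zfp52 was the only one.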

How the results depend on the processing

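No paired analysis was possible because the labels give no replicate numbers and each group has 1 array. No call reversed in a planned setting. Several of these settings leave the R848 and CpG B estimates unchanged, so no reversal was possible there. Signs of single R848 and CpG B effects were not checked with 1 array left out. For the genotype effect, leaving out 1 array gives the same estimate as leaving out both arrays of its condition. There all 5 called genes kept their sign. In every planned setting, 16 of the 27 R848 calls, 0 of the 5 CpG B calls and 0 of the 5 genotype calls passed. Zfp35 passed in 2 of 10. Why a count changed was not tested in any setting. For single arrays, the share of all genes past 2-fold was counted with the main processing only. Of ZFP genes risen with R848 (9), median scaling gave 5 and leaving out 1 array, chosen after seeing the data, 0 to 10; of those fallen (18), detection on all 6 arrays gave 10, 8 arrays 28, and leaving out 1 array 0 to 27. Risen with CpG B (2) became 1 with detection on all 6 arrays, 1 with no detection filter, 7 with 8 arrays, 0 with no genotype term, 5 on the 4 arrays of the comparison, and 0 to 5 with 1 array left out. Fallen with CpG B (3) became 5 with no background correction, 6 with offset 50, 0 with no detection filter, 9 with 8 arrays, 1 with no genotype term, 13 on the 4 arrays, and 0 to 13 with 1 left out. Higher in the knockout (3) became 0 with median scaling, 0 with no detection filter, 7 with 8 arrays, and 0 without the untreated, the R848 or the CpG B arrays, and 0 to 0 with 1 left out. Lower in the knockout (2) became 0 with detection on all 6 arrays, 1 with no detection filter, 0 without the untreated arrays, 1 without the CpG B arrays, and 0 to 2 with 1 left out. Past 2-fold on single arrays, R848 in wild type (11) became 6 with no background correction and 19 with median scaling; CpG B in wild type (0) became 1 with median scaling and 1 with processed values; and knockout against wild type with no background correction became 0 untreated (1), 2 after R848 (7) and 0 after CpG B (1). Calls over all genes moved as well. From 2103 (R848), 621 (CpG B) and 243 (genotype) they became 2739, 1317 and 527 with 8 arrays. With detection on all 6 arrays they were 1936, 693 and 265, and with no detection filter 1745, 251 and 140. CpG B called 741 with no background correction, 770 with offset 50, 259 with no genotype term and 1290 on its 4 arrays. Whether the ZFP counts moved beyond this was not tested. Signal near background limits the 44 ZFP genes not detected on every array.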
